A study of Bos taurus with 2 samples.

Results

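The genes of polyamine and methionine metabolism were compared between bovine in vitro fertilised embryos injected with CDKN1C siRNA and sham-injected embryos, which were punctured by the needle without delivery of siRNA. Injection was into zygotes, and the study's methods describe collection of blastocysts from each injection group. The genes were chosen by symbol: SRM, SMS, ODC1, AMD1, SAT1, OAZ1, AZIN1, MAT2A, AHCY and MTAP. Values were found for 9 of these 10 genes, of 21209 gene symbols in all, and AHCY was not analysed here. Each group is 1 pool of embryos and 1 RNA-Seq library made from amplified RNA, so no difference has a replicate check, no test was run and no error can be given. Values are FPKM, fragment numbers divided by transcript length and by sequencing depth, the latter set by the authors from the upper quartile of each library, and the reads behind each value are unknown. In a pool, fewer cells of a type and less RNA per cell cannot be told apart.

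Polyamines (putrescine, spermidine and spermine) are small positively charged molecules that bind nucleic acids and are needed for growth and translation, and their synthesis is required for development of the early mammalian embryo. Ornithine is decarboxylated to putrescine, and aminopropyl groups taken from decarboxylated S-adenosylmethionine are then added to make spermidine and spermine. Each addition releases methylthioadenosine, which the salvage pathway turns back into methionine, so that polyamine synthesis and the methionine cycle share S-adenosylmethionine.

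SRM stood apart from the other polyamine and methionine genes. It encodes spermidine synthase, which adds the aminopropyl group to putrescine. SRM was 28.4 FPKM with CDKN1C siRNA and 150.5 FPKM with sham injection, and was therefore 5.30-fold lower after siRNA injection. The other 8 genes lay within 2-fold of their sham level, 6 of them higher in the injected pool and 2 lower. Of all genes that averaged 1 FPKM or more, 79.4% lay within 2-fold with 1 FPKM added to each level, and 41.7% were higher.

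**Figure D1:**
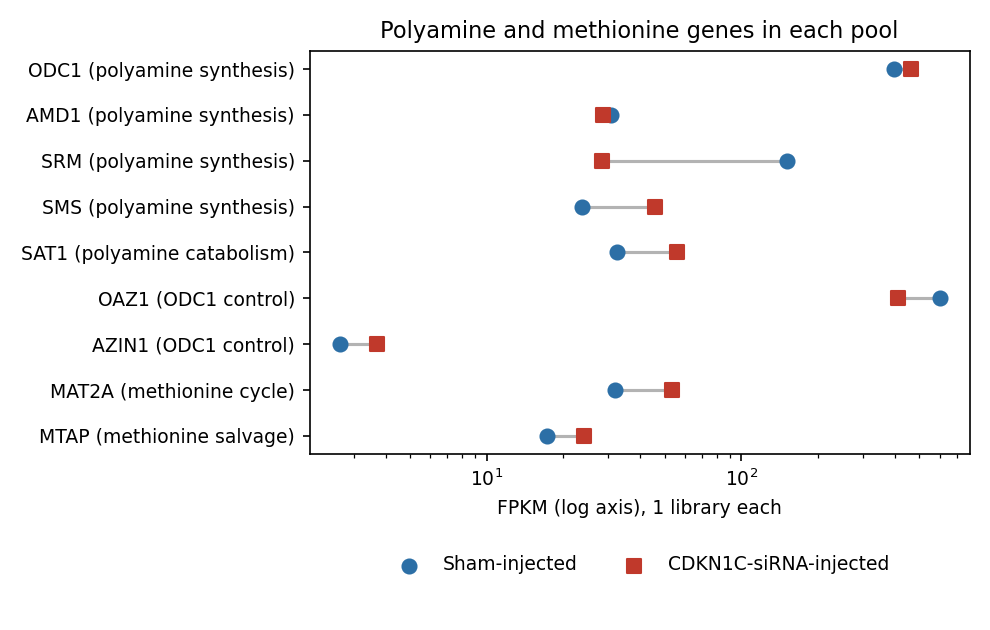
FPKM (horizontal, log axis) of 9 polyamine and methionine genes with sham injection (blue circles) and with CDKN1C siRNA (red squares), from 1 library per pool. The grey line of SRM, from 28.4 to 150.5 FPKM, is the longest, and the squares of SMS, SAT1, AZIN1, MAT2A, MTAP and ODC1 lie to the right of their circles.

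Differences are given as the log2 ratio of the injected to the sham level, each with 1 FPKM added, a scale that understates the change of genes with low values. On this scale 1 of the 9 genes, SRM, was lower by 2-fold or more in the injected pool, beside 15.7% of the 7984 genes that averaged 1 FPKM or more. None of the 9 was at least 2-fold higher, beside 4.92% of all genes. SRM was also past 4-fold, as were 1.05% of all genes in that direction, while 0.413% of all genes and none of the 9 were 4-fold higher. At 1.5-fold, 1 of the 9 was lower, beside 30.5% of all genes, and 3, SMS, SAT1 and MAT2A, were higher, beside 14.9%. The median log2 difference was 0.37 over the 9 genes and -0.17 over all genes, and 7 of the 9 lay above the median of all genes. Single libraries cannot show whether these differences exceed the spread between embryo pools.

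**Figure D2:**
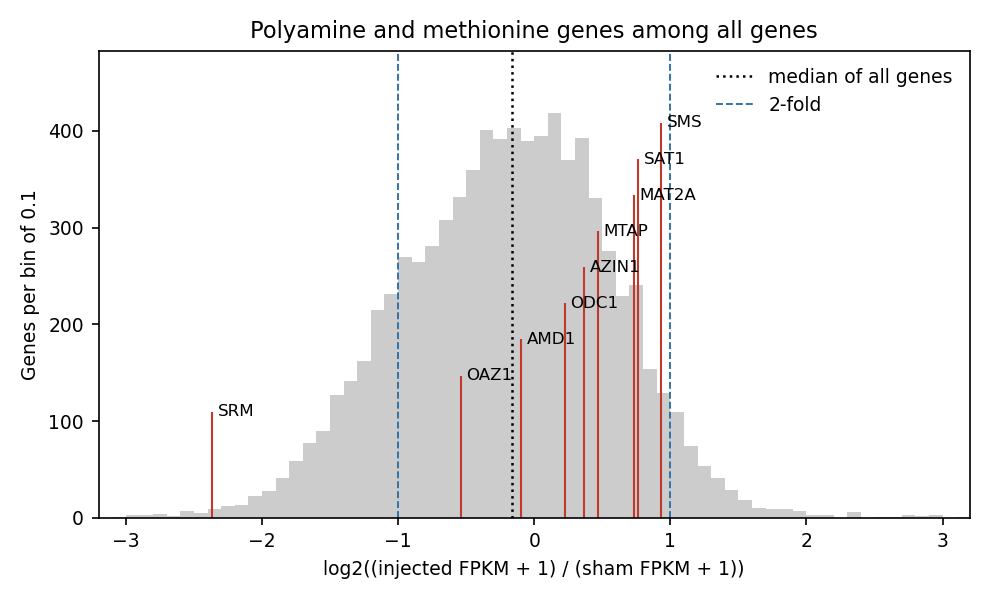
Number of genes (vertical) by log2 difference, injected minus sham (horizontal, bins of 0.1) for the 7984 genes that averaged 1 FPKM or more, of which 12 lie outside the plotted range. Red lines, whose heights carry no value, mark 9 polyamine and methionine genes, dashed lines 2-fold and the dotted line the median of all genes at -0.17; SRM lies at -2.37, far to the left of the other 8.

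Along the synthesis steps, the first enzymes differed little between the pools with the values as deposited. ODC1, the ornithine decarboxylase that makes putrescine and is held to limit the rate of the pathway, was 462 FPKM with CDKN1C siRNA and 396 FPKM with sham injection. AMD1, which decarboxylates S-adenosylmethionine to supply aminopropyl groups, was 28.6 against 30.7 FPKM. Their log2 differences were 0.22 and -0.10. ODC1 lies at chr11:89946428-89953698 and AMD1 at chr9:41684246-41705576 of bosTau7, the genome build of the authors' values. The direction of AMD1 depended on the scaling. Its log2 difference was 0.07 after the median of all genes was set to 0 and 0.29 with the same total FPKM in both pools. ODC1 was higher in the injected pool under each scaling, at 0.39 and 0.62 under these settings. After the fit on locus length given below, ODC1 was at 0.69.

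The aminopropyltransferases SRM and SMS went opposite ways. SMS encodes spermine synthase, which adds the second aminopropyl group and turns spermidine into spermine. SMS was 45.9 FPKM with CDKN1C siRNA and 23.6 FPKM with sham injection, 1.95-fold higher, with a log2 difference of 0.93 that 473 of the 7984 genes (5.92%), SMS included, reached or passed. The level of SMS relative to SRM in the same library does not depend on how the pools are scaled to each other. This ratio was 1.62 in the injected pool and 0.157 in the sham pool, a 10.3-fold difference. The ratio is not free of the trend with locus length given below, as SMS spans 30361 bp and SRM 4060 bp. After a loess fit on locus length was removed, the log2 differences of SMS and SRM were 0.97 and -1.84. SRM made up 38.2% of the summed FPKM of SRM and SMS in the injected pool and 86.5% in the sham pool, and the sum itself was 74.3 against 174 FPKM. In the same way, AMD1 was as abundant as SRM in the injected pool, with a ratio of 1.01, and had 0.204 of the level of SRM in the sham pool. AMD1 spans 21330 bp, and its log2 difference was 0.06 after the length fit.

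SRM lies on chromosome 16, at chr16:39298009-39302069, and no other gene has the same location in the tables. Its log2 difference of -2.37 was reached or passed by 32 of the 7984 genes, SRM included, and by 3 of the 500 genes closest in mean level. The study lists SRM among the genes that differed between these same pools, and its direction here is therefore no independent evidence. Of the 9 genes, SRM ranked 3 by level in the sham pool and 7 in the injected pool, while no other gene moved by more than 2 ranks. None of the 3 loci within 100 kb of SRM that averaged 1 FPKM or more passed 2-fold, and 79.4% of all genes lay within it. LOC100849251 was 11.5 against 20.6 FPKM, EXOSC10, of the RNA exosome, was 4.84 against 6.65 FPKM, and TARDBP, which encodes the RNA-binding protein TDP-43, was 7.94 against 4.02 FPKM, with CDKN1C siRNA and sham injection in this order. Their log2 differences were -0.79, -0.39 and 0.83, and MTOR, ANGPTL7 and MASP2, of which the last has the same location as TARDBP, averaged under 1 FPKM.

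Short loci were lower in the injected pool across the data, and SRM is a short locus of 4060 bp. The median log2 difference was -0.53 over 1344 genes with a locus under 5 kb and 0.12 over 1842 genes with a locus over 50 kb, and 26.9% and 6.24% of these genes were at least 2-fold lower. Of the genes under 5 kb, 12, SRM included, were as low as SRM or lower. After a loess fit on locus length was removed, SRM was still at -1.84. OAZ1 and SAT1, the other short loci of the 9 genes at 3537 and 3099 bp, had log2 differences of -0.54 and 0.77, which became -0.01 and 1.29.

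Genes that control ornithine decarboxylase lay within 2-fold, as did 79.4% of all genes, and went opposite ways. OAZ1 encodes antizyme, which is made by a frameshift when polyamines are plentiful, binds ODC1 and sends it to the proteasome. OAZ1 was 413 FPKM with CDKN1C siRNA and 601 FPKM with sham injection, 1.45-fold lower. AZIN1 encodes an inactive relative of ODC1 that binds antizyme and so frees ODC1. It was the lowest of the 9 genes in both pools, at 3.69 against 2.64 FPKM and a log2 difference of 0.37. OAZ1 lies at chr7:20008137-20011674 and AZIN1 at chr14:59660872-59691539. The ratio of OAZ1 to ODC1 was 0.894 in the injected pool and 1.52 in the sham pool, so that OAZ1 was the more abundant of the pair only in the sham pool. The ratio of AZIN1 to ODC1 was 0.00798 and 0.00667. ODC1 and OAZ1 together made up 78.5% of the summed FPKM of the 9 genes in the injected pool and 77.5% in the sham pool.

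SAT1, which acetylates spermidine and spermine and starts their breakdown and export, was higher in the injected pool. It was 56.0 FPKM with CDKN1C siRNA and 32.6 FPKM with sham injection, 1.72-fold higher. Its log2 difference of 0.77 was reached or passed by 755 of the 7984 genes (9.46%), SAT1 included, and among the 9 genes only SMS had a higher value. The ratio of ODC1 to SAT1 was 8.25 in the injected pool and 12.2 in the sham pool. SAT1 and SMS lie 1.08 Mb apart on chromosome X, at chrX:73555142-73558241 and chrX:74640542-74670903. The median log2 difference was 0.17 over 183 genes of chromosome X and -0.17 over 7794 genes on neither X nor Y. Of the X genes, 17 were higher and 17 lower by 2-fold or more, beside 4.92% and 15.7% of all genes. XIST, the RNA of X inactivation, was 2.02 against 0.398 FPKM. On chromosome Y, 4 of 7 genes were lower by 2-fold or more in the injected pool, beside 15.7% of all genes. A part of embryo sex in the SAT1 and SMS values was not tested.

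In the methionine cycle, MAT2A was higher in the injected pool. It encodes the catalytic subunit of the methionine adenosyltransferase that makes S-adenosylmethionine outside the liver. MAT2A was 53.6 FPKM with CDKN1C siRNA and 31.8 FPKM with sham injection, 1.68-fold higher, with a log2 difference of 0.73 that 830 of the 7984 genes (10.4%), MAT2A included, reached or passed. The locus is at chr11:51220983-51227568. Its neighbours went mostly the other way. The 6 loci within 100 kb that averaged 1 FPKM or more had a median log2 difference of -0.72. That median was -0.43 over the 18 such loci near any of the 9 genes, and -0.17 over all genes. Locus length was not taken into account for these neighbours. Of the 6 loci, 2 were lower and 1 was higher by 2-fold or more, beside 15.7% and 4.92% of all genes. MTAP, the phosphorylase that cleaves the methylthioadenosine left by SRM and SMS and so opens the salvage pathway, was 24.2 against 17.2 FPKM, 1.41-fold higher, with a log2 difference of 0.47. MTAP spans 165741 bp at chr8:23056769-23222510 and is the longest locus of the 9 genes.

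The order of the 9 genes by level was otherwise much the same in both libraries. In the sham pool it ran from OAZ1 and ODC1 through SRM to SAT1, MAT2A, AMD1, SMS, MTAP and AZIN1. In the injected pool it ran from ODC1 and OAZ1 to SAT1, MAT2A, SMS, AMD1, SRM, MTAP and AZIN1, with AMD1 and SRM at 28.6 and 28.4 FPKM. Between 72.3% and 98.9% of all gene symbols were lower than any 1 of these genes in the same pool.

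**Figure D3:**
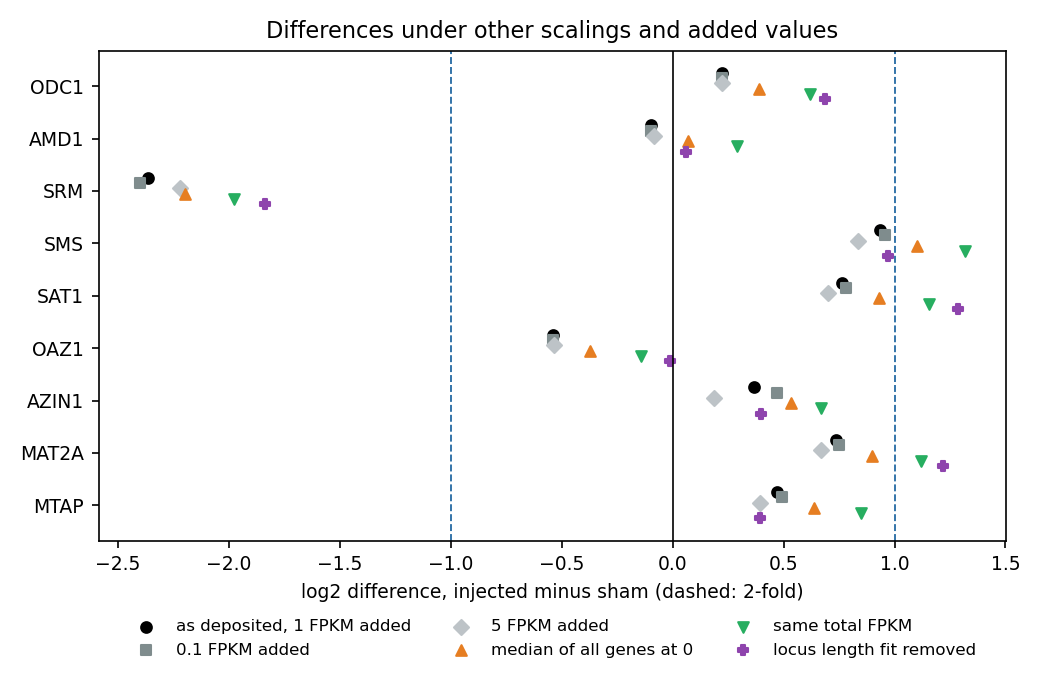
Log2 difference, injected minus sham (horizontal) of 9 polyamine and methionine genes, with the values as deposited and 1, 0.1 or 5 FPKM added, with the median of all genes at 0, with the same total FPKM in both pools, and after a fit on locus length. SRM stays left of the dashed 2-fold line in each case, from -2.40 to -1.84, AMD1 crosses 0, and SMS, SAT1 and MAT2A pass 2-fold higher under some scalings.

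How the pools are scaled to each other moved all differences. With the same total FPKM in both pools the median of all genes was 0.17 in place of -0.17. On that scaling SMS, SAT1 and MAT2A were at least 2-fold higher, at 1.32, 1.15 and 1.12, beside 12.0% of all genes. Among all genes past 2-fold, 76.2% were lower in the injected pool with the values as deposited, 58.9% with the median of all genes at 0, 53.4% after the fit on locus length and 37.8% with the same total. Over all alternatives, the log2 difference of SMS ranged from 0.83 to 1.32, that of SAT1 from 0.70 to 1.29, that of MAT2A from 0.67 to 1.22 and that of MTAP from 0.39 to 0.85. ODC1 and AZIN1 were above 0 wherever they passed the filter on low values and OAZ1 was below 0, from -0.54 to -0.01. The median of the 9 genes lay 0.53 above the median of all genes as deposited and between 0.32 and 0.67 above it under the alternatives.

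Other genes of polyamine and methionine metabolism were examined from lists made from textbook knowledge. Of 35 genes, 21 had a mean of at least 1 FPKM. Of these, 6 were lower by 2-fold or more in the injected pool, beside 15.7% of all genes, and none was at least 2-fold higher, beside 4.92%. Their median log2 difference was -0.36, beside -0.17 over all genes. The 6 genes were PAOX, SLC3A2, DHPS, DOHH, GNMT and MRI1.

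**Figure D4:**
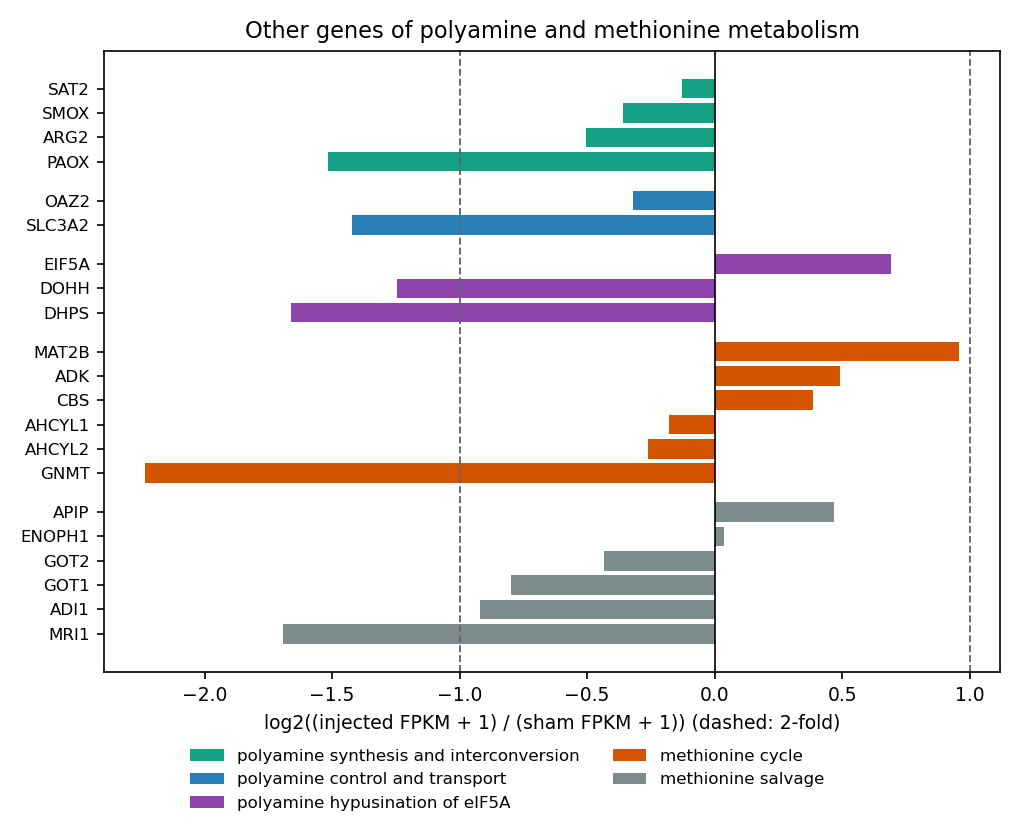
Log2 difference, injected minus sham (horizontal) of the 21 other polyamine and methionine genes that averaged 1 FPKM or more, 1 bar a gene, coloured by list, with dashed lines at 2-fold. GNMT has the longest bar, at -2.23, and MAT2B the longest to the right, at 0.96.

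In polyamine breakdown, PAOX, the oxidase that acts on acetylated polyamines made by SAT1, was lower in the injected pool. PAOX was 10.4 FPKM with CDKN1C siRNA and 31.5 FPKM with sham injection, 3.04-fold lower, opposite in direction to SAT1. SAT2, a relative of SAT1, was 25.8 against 28.2 FPKM, with a log2 difference of -0.13 that turned positive under 3 alternatives. SAT2 shares its location with 1 other entry, so reads of that pair may not be told apart. All 4 genes of synthesis and interconversion that averaged 1 FPKM or more were lower as deposited, while 41.7% of all genes were higher. In control and transport, SLC3A2, the heavy chain of several amino acid transporters, was 3.24 against 10.4 FPKM, and the antizyme gene OAZ2 was 13.4 against 16.9 FPKM, with log2 differences of -1.42 and -0.32. SLC3A2 was within 2-fold, at -0.90, with 5 FPKM added, and OAZ2 turned positive, at 0.05, with the same total FPKM in both pools.

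Spermidine is also the donor for hypusine, an amino acid made only in the translation factor eIF5A. DHPS, the deoxyhypusine synthase that uses spermidine, was 10.2 FPKM with CDKN1C siRNA and 34.3 FPKM with sham injection, 3.37-fold lower. DOHH, the hydroxylase of the next step, was 28.9 against 69.7 FPKM, 2.41-fold lower. EIF5A, which encodes the protein that carries hypusine, went the other way, at 314 against 194 FPKM and 1.62-fold higher, with a log2 difference of 0.69. Of the 3 hypusination genes that averaged 1 FPKM or more, 2 were thus lower by 2-fold or more, beside 15.7% of all genes. The median log2 difference of the 3, which is that of DOHH, was -1.24, beside -0.17 over all genes. DOHH was within 2-fold with the same total FPKM and after the fit on locus length, at -0.86 and -0.80. Under the same settings EIF5A was past 2-fold higher, at 1.09 and 1.22, beside 12.0% and 7.52% of all genes. DHPS shares its location in the tables with 1 other gene, so reads of that pair may not be told apart.

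Among methionine genes, GNMT had the lowest value. It encodes glycine N-methyltransferase, which consumes S-adenosylmethionine. GNMT was 28.8 FPKM with CDKN1C siRNA and 139 FPKM with sham injection, 4.83-fold lower, a ratio close to that of SRM. MAT2B, the regulatory partner of MAT2A, was higher along with it, at 10.3 against 4.82 FPKM and a log2 difference of 0.96, which passed 2-fold under 4 alternatives. In the salvage of methylthioadenosine, MRI1, the isomerase that follows MTAP, was 16.4 against 55.1 FPKM, 3.37-fold lower, and APIP, the dehydratase of the next step, was 58.8 against 42.2 FPKM. Of 12 methionine genes that averaged 1 FPKM or more, 7 were lower and 5 higher, beside 41.7% of all genes higher. The median log2 difference of the 12 was -0.22. Among the 7, 2 turned positive with the same total FPKM, AHCYL1 and AHCYL2, relatives of AHCY named after their values were seen. AHCYL2 shares its location with 1 other entry.

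CDKN1C, the cell-cycle inhibitor targeted by the siRNA, was 14.6 FPKM with CDKN1C siRNA and 49.5 FPKM with sham injection, 3.40-fold lower. CDKN1C also has a locus under 5 kb. Its log2 difference was -1.70 as deposited, -1.32 with the same total FPKM and -1.195 after the fit on locus length. This ratio is not the knockdown that the study measured by qRT-PCR. Markers of the blastocyst were present in both pools. The summed level of 7 trophectoderm markers was 7304 FPKM with CDKN1C siRNA and 17124 FPKM with sham injection, and that of 3 inner cell mass markers 75.7 against 199.9 FPKM. POU5F1 made up most of the inner cell mass sum, at 56.3 against 170.1 FPKM. NANOG, at 15.1 against 23.9 FPKM, and SOX2, at 4.37 against 5.87 FPKM, were within 2-fold. Of the 7 trophectoderm markers, 3 were lower and 2 higher by 2-fold or more, beside 15.7% and 4.92% of all genes. The keratin genes KRT8 and KRT18 made up most of their sum, and the sum of the other 5 markers went the other way, at 304 against 120.0 FPKM. Among these, the interferon tau genes IFNT2 and IFNT3 were 4.33-fold and 3.60-fold higher in the injected pool, and CDX2 was 3.15-fold lower. Of 6 fibroblast and mesenchyme markers, 3 averaged 1 FPKM or more, and all 3 were higher in the injected pool, beside 41.7% of all genes. The sum over the 6 was 25.8 against 2.69 FPKM, with COL1A1 at 0 in both. VIM made up most of this sum, and the other 5 summed to 7.35 against 1.24 FPKM. For 7 cumulus and granulosa markers the sum was 11.3 against 23.6 FPKM, with PTX3 and AMH at 0 in both. This difference rested on HSD3B1, at 3.29 against 15.7 FPKM, and the other 6 summed to 8.04 against 7.85 FPKM. The marker genes in these sentences were named after their values were seen. For 3 blood markers the sum was 13.0 against 13.2 FPKM, with HBB at 0 in both. The part of these cell types in the SRM, SMS and other values was not tested.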

How the data were processed

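RNA of 1 CDKN1C-siRNA-injected and 1 sham-injected pool of embryos was amplified, sequenced, mapped to bosTau7 with TopHat and quantified with Cufflinks 2.0.2. The authors deposited FPKM values, upper-quartile normalized and corrected for sequence bias; the annotation is not given in the sources used here. Each pool has 22220 loci, of which 615 without a symbol (3.37% and 3.41% of FPKM) were left out, and loci sharing a symbol were summed. Differences were log2((injected + 1)/(sham + 1)) over genes that averaged 1 FPKM or more, and 2-fold was the size rule; depth is unknown, and no test was possible with single libraries. The calculation was checked on a copy of the sham values with planted changes. That copy holds no spread between pools, so it cannot test the size rule. Named genes were all analysed members, CDKN1C, other pathway genes past 2-fold, the highest and lowest of each list, and loci within 100 kb of members past 2-fold; a result that the rule names is not reported here. The members and lists were chosen with earlier results of these data known. The planned ratio of MAT2A to AHCY was not formed. Sequences were not used here. Alternatives were other added values, filters, scalings, size rules, the highest locus and a loess fit on locus length (span 0.3). Versions were matplotlib 3.10.9, statsmodels 0.14.6, NumPy 2.4.6, pandas 2.3.3 and Python 3.11.15.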

Additional observations from a re-analysis of the deposited data

How the results depend on the processing

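SRM was at least 2-fold lower under each alternative. The median log2 difference of the 9 genes, 0.37 as reported, was 0.47 and 0.22 with 0.1 and 5 FPKM added, 0.35 over the 8 genes that averaged 5 FPKM or more, 0.53 with the median of all genes at 0, 0.67 with the same total FPKM and 0.40 after the fit on locus length. That of the other pathway genes, -0.36 as reported, was -0.44, -0.26, -0.50, -0.19, -0.015 and -0.33 under these 6 settings and -0.15 without a filter on low values. The number of the 9 genes at least 2-fold higher was 0 as reported. It was 1 with the median at 0 (SMS), beside 7.72% of all genes, and 2 after the length fit (SAT1 and MAT2A), beside 7.52%. With the same total it was 3, beside 12.0%, and at a size rule of 1.5-fold 3, beside 14.9%. For the other pathway genes this number was 1 with 0.1 FPKM added, beside 8.67% of all genes, and 1 with the median at 0. It was 2 after the length fit, 2 with the same total and 2 at 1.5-fold, beside the shares just given. At 4-fold 1 of the other pathway genes, GNMT, was lower in place of 6, beside 1.05% of all genes. The number of other pathway genes at least 2-fold lower was otherwise between 5 and 8, beside 7.32% to 30.5% of all genes. With a single library a group, no replicate could be left out. No paired analysis was possible because each group has 1 library. Read depth is unknown, so counting error limits the low genes, such as AZIN1, to an unknown degree.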

Other observations

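Folate metabolism, which supplies methyl groups to the methionine cycle, held mostly small differences. MTHFD1, the cytosolic enzyme that interconverts folate forms, was 93.2 FPKM with CDKN1C siRNA and 189 FPKM with sham injection, with a log2 difference of -1.01. Of 7 folate genes that averaged 1 FPKM or more, 6 were lower and 1 higher as deposited, beside 41.7% of all genes higher. Among the 6, 3 turned positive with the same total FPKM, and 1 was at least 2-fold lower, beside 15.7% of all genes. MTHFD1 was within 2-fold, at -0.62, with the same total FPKM in both pools. It was also within 2-fold with the median of all genes at 0, at -0.85, and with 5 FPKM added, at -0.98.

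Genes of the MYC network, known for regulating ODC1 and SRM, went both ways. MYCN, the relative of MYC known from early development, was 11.2 FPKM with CDKN1C siRNA and 6.45 FPKM with sham injection, 1.74-fold higher, with a log2 difference of 0.71 that ranged from 0.50 to 1.2 over the alternatives and passed 2-fold under 2 of them, with the same total FPKM, at 1.07, and after the fit on locus length. MAX, the shared partner of MYC proteins on DNA, was 32.0 against 73.4 FPKM, 2.29-fold lower, with log2 differences from -1.19 to -0.78 over the alternatives. Of 4 network genes that averaged 1 FPKM or more, 3 were lower as deposited and 1 higher, beside 41.7% of all genes higher. The median log2 difference of the 4 was -0.27, and 2 of the 3 turned positive after the fit on locus length.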
